A study of Mus musculus with 4 samples.

Results

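Costimulatory and coinhibitory receptors were followed as 10 named genes among the 16230 of the table: the activating Cd28, Icos and Cd40lg (3 genes), and the inhibitory Ctla4, Pdcd1, Btla, Tigit, Lag3, Havcr2 and Cd96 (7 genes). They were taken from the table by name, and the set was chosen with earlier results of these data known. The RNA came from CD4 T cells sorted from spleens of Rag-/- mice, hosts without lymphocytes of their own, 8 weeks after transfer of naive CD4 T cells that caused colitis. Donor cells were ERafl/fl (the Esr1 gene flanked by loxP sites, 2 libraries, called controls) or CD4creERafl/fl (the same alleles with a Cre recombinase expressed from Cd4, 2 libraries), so both groups carried the floxed alleles and all hosts were Rag-deficient and colitic. Sex and age of the mice, and whether each library was 1 mouse or a pool, are not given in the sources used here. P-values therefore measure only the spread between these libraries, which may be technical. The targeted gene, Esr1, had 0.23 FPKM (fragments scaled to transcript length and library depth) in control 1 and 1.96 in the library labelled CD4cre 2, and 0 is listed for the remaining pair. Its mean was thus not lower in the libraries labelled CD4cre. One value for the whole gene cannot show a deleted exon, and the groups keep their labels, written as controls and libraries labelled CD4cre. Depth was estimated at 510000 to 707000 fragments a library, so 1 fragment on a transcript of 2000 bases is worth 0.72 to 1.0 FPKM.

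A T cell needs a second signal beside its antigen receptor to be activated. CD28 gives it on binding CD80 or CD86 on antigen-presenting cells, and CTLA-4 binds the same pair more tightly and so withholds it. ICOS and CD40 ligand act later, in help to B cells and myeloid cells, while PD-1, BTLA, TIGIT, LAG-3 and TIM-3 (the product of Havcr2) restrain T cells after activation and, in chronic stimulation, mark exhausted cells. CD96 shares a ligand with TIGIT and is grouped here with the inhibitory members, although activating roles are also known for it. Several of these receptors are not confined to T cells: macrophages and dendritic cells make TIM-3, B cells make BTLA, and NK cells make TIGIT, LAG-3 and CD96.

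All 3 activating receptors and 4 of the 7 inhibitory ones (Ctla4, Pdcd1, Btla and Cd96) were lower in both libraries labelled CD4cre than in both controls. Tigit, Lag3 and Havcr2 had higher means there, and for each of them the libraries of the groups overlapped. None of the 10 passed an adjusted p under 0.05 in limma over the 12896 genes tested, where 0.0388% of genes fell and 0.0155% rose. The smallest adjusted p among the members was 0.082, for Cd40lg and Cd96. An unadjusted p under 0.05 in limma was found for 6 members, all lower (Cd28, Icos, Cd40lg, Ctla4, Pdcd1 and Cd96), and over all genes for 6.8% lower and 9.1% higher. The 7 of 10 members that were lower without overlap stand beside 25.7% of all genes tested (23.2% were higher without overlap, and 53.6% had a lower mean). The median log2 difference, libraries labelled CD4cre minus control on log2(FPKM + 1), was -2.38 for the activating members and -1.22 for the inhibitory members, against -0.07 for all genes tested. The inhibitory median is the value of Btla, and it was -0.29 without control 1, -0.42 with a mean of at least 5 FPKM, where Pdcd1 is not tested, and 0.37 with voom weights, where Ctla4 and Btla are not. With 2 libraries against 2, an exact permutation test of 1 gene cannot give a two-sided p below 0.33, so none is given.

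**Figure D1:**
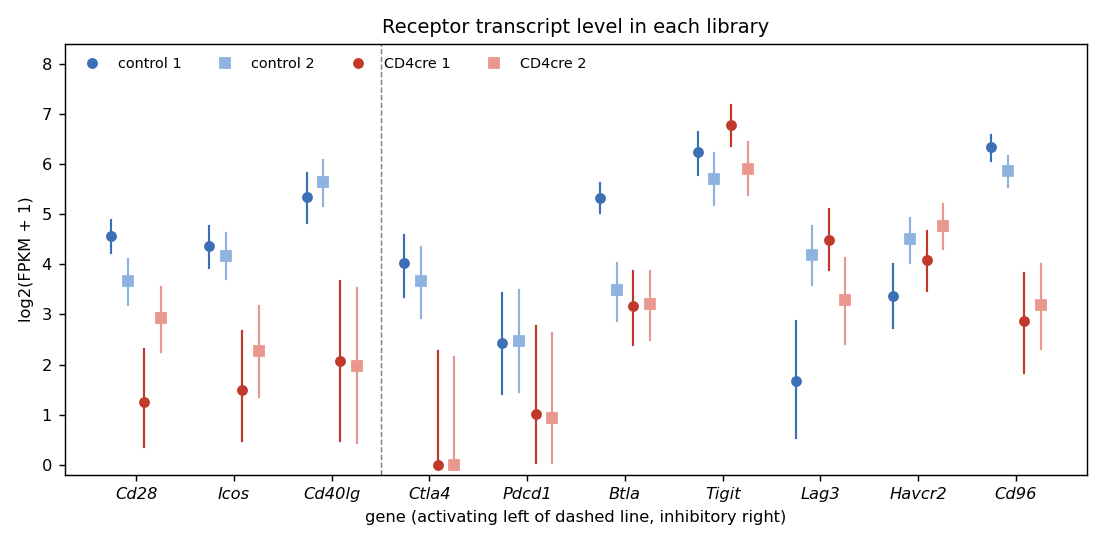
Level of each receptor as log2(FPKM + 1) in the 4 libraries, with vertical lines for the 95% Poisson interval of the estimated fragments (counting error only). The libraries labelled CD4cre (red) lie below both controls (blue) for Cd28, Icos, Cd40lg, Ctla4, Pdcd1, Btla and Cd96. For Tigit, Lag3 and Havcr2 the groups overlap.

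The activating receptors were low in both libraries labelled CD4cre, Cd40lg most of all. Cd40lg encodes the ligand by which helper T cells stimulate B cells and myeloid cells through CD40 (NCBI gene 21947; GRCm38 chromosome X, 57212143 to 57224042). It stood at 39.5 and 48.7 FPKM in controls 1 and 2, and at 3.23 and 2.9 in the libraries labelled CD4cre 1 and 2. The control mean was 44.1 ± 6.53 (SD, n = 2) and the other mean 3.06 ± 0.23 (SD, n = 2), 14.4-fold lower. The log2 difference was -3.47 ± 0.36 (SE; adjusted p = 0.082 in limma). These levels rest on about 34, 40, 2 and 2 fragments, so the 95% Poisson intervals in the second group, 0.39 to 11.7 and 0.35 to 10.5 FPKM, are wide but end below those of the controls.

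Icos encodes the inducible costimulator, which binds ICOS ligand and is needed for follicular helper T cells (NCBI gene 54167; chromosome 1, 60960773 to 61000322). It stood at 19.6 and 16.9 FPKM in controls, and at 1.82 and 3.81 in the libraries labelled CD4cre. Both of the latter were below both controls, with a log2 difference of -2.38 ± 0.45 (SE; adjusted p = 0.139 in limma), on about 3 and 7 fragments. Cd28, which encodes the first and constitutive costimulator (NCBI gene 12487; chromosome 1, 60746388 to 60773359), stood at 22.7 and 11.7 FPKM in controls against 1.38 and 6.59 in the libraries labelled CD4cre. Its log2 difference was -2.03 ± 0.68 (SE; adjusted p = 0.255 in limma). Cd28 was the least even of the activating members: the values within each group differed by more than those of Icos, and the log2 difference was -1.2 without the library labelled CD4cre 1 and -2.87 without CD4cre 2. Summed over the 3 genes, the activating receptors came to 81.8 and 77.4 FPKM in controls against 6.43 and 13.3 in the other group.

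Ctla4 was listed at 0 in both libraries labelled CD4cre. It encodes the receptor that competes with CD28 for CD80 and CD86 and is made at high level by regulatory T cells (NCBI gene 12477; chromosome 1, 60909025 to 60915832). Controls had 15.3 and 11.7 FPKM, about 20 and 15 fragments on its longer transcript. An exact 0 in such a table may be a failed assignment. Cox7c, a respiratory chain subunit used by every cell, was listed at 0 in control 1 and had 13.3 to 43.1 FPKM in the other 3 libraries, on about 4 to 11 fragments. The cause of that 0 was not tested, nor was that of the values of Ctla4 listed at 0. On the longer transcript of Ctla4 a count of 0 allows up to 3 fragments, or 3.11 and 2.8 FPKM, and no fold is given. The two-sided 95% Poisson interval drawn in the plot of levels is wider and ends at 3.82 and 3.44 FPKM. The adjusted p in limma was 0.0929.

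Cd96 encodes a receptor for the poliovirus receptor CD155 on T and NK cells (NCBI gene 84544; chromosome 16, 46035652 to 46120248). It was the most abundant receptor in controls, with 80.0 and 57.3 FPKM, and stood at 6.34 and 8.13 in the libraries labelled CD4cre. The means of 68.7 ± 16.1 and 7.24 ± 1.27 (SD, n = 2) differed 9.49-fold, with a log2 difference of -3.07 ± 0.36 (SE; adjusted p = 0.082 in limma). These values rest on about 121.3 and 83.0 fragments in controls against 6.9 and 9.9. Cd96 was the 1 member that passed when values were weighted by their fragments (limma voom, adjusted p = 0.0432, 8 members tested, where 0.172% of genes fell and 0.436% rose).

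Pdcd1, which encodes PD-1 (NCBI gene 18566; chromosome 1, 94038305 to 94052553), had the lowest mean of the receptors in controls, although Lag3 was lower in control 1. It stood at 4.37 and 4.58 FPKM there, and at 1.01 and 0.91 in the libraries labelled CD4cre. These are about 6 and 6 fragments against 1 and 1, and the 95% Poisson intervals of all 4 libraries overlap, so the difference (log2 -1.48 ± 0.50, SE; adjusted p = 0.258 in limma) is not resolved at this depth. Btla encodes the receptor of HVEM (NCBI gene 208154; chromosome 16, 45223705 to 45252895) and separated the controls from each other. It stood at 39.3 FPKM in control 1, 10.2 in control 2, and 7.98 and 8.27 in the libraries labelled CD4cre, so control 2 lay close to the second group. The log2 difference of -1.22 ± 0.65 (SE; adjusted p = 0.427 in limma) was -0.29 without control 1 and -2.14 without control 2.

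Tigit was the most abundant receptor in the libraries labelled CD4cre. It encodes an inhibitory receptor for CD155 found on regulatory T, memory T and NK cells (NCBI gene 100043314; chromosome 16, 43626137 to 43665125). It stood at 74.6 and 51.4 FPKM in controls, and at 109 and 59.3 in the libraries labelled CD4cre. The library labelled CD4cre 2 lay between the controls. The log2 difference was 0.37, with a 95% interval from -0.64 to 1.38 (adjusted p = 0.689 in limma), and was -0.06 without the library labelled CD4cre 1. About 30 to 49 fragments stood behind each value. The ratio of Tigit to Cd96, which share the ligand CD155, was 0.933 and 0.897 in controls against 17.2 and 7.29 in the libraries labelled CD4cre. A ratio of genes within a library does not depend on how libraries are scaled. Foxp3, the defining factor of regulatory T cells, stood at 44.0 and 40.5 FPKM in controls, and at 91.3 and 67.5 in the libraries labelled CD4cre (adjusted p = 0.264 in limma). Its exons overlap those of Flicr on the same strand (853 bases). On the opposite strand they overlap those of Ccdc22 (590 bases), Gm36995 (373 bases) and Ppp1r3f (266 bases). The part of Foxp3 in the level of Tigit was not tested.

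Lag3 encodes a receptor that binds MHC class II in competition with CD4 (NCBI gene 16768; chromosome 6, 124904359 to 124912434). It stood at 2.19 FPKM in control 1 and 17.1 in control 2, and at 21.5 and 8.77 in the libraries labelled CD4cre. Control 1 alone was low, on about 3 fragments, and the log2 difference of 0.96 (95% interval -1.29 to 3.22, adjusted p = 0.635 in limma) turned to -0.29 without it. The gene next to Lag3 is Cd4, 16.1 kb away on chromosome 6 with no protein-coding gene between them. Cd4, a surface protein of the sort, stood at 155 and 128 FPKM in controls, and at 52.6 and 52.4 in the libraries labelled CD4cre. Havcr2 encodes TIM-3 (NCBI gene 171285; chromosome 11, 46454931 to 46481255). It stood at 9.4 and 21.6 FPKM in controls, and at 16.1 and 26.0 in the libraries labelled CD4cre. Control 1 was again the lowest library, and the log2 difference of 0.49 (95% interval -0.78 to 1.76, adjusted p = 0.673 in limma) was -0.07 without it. Control 1 had the lowest value of both genes and the lowest sums of macrophage and dendritic cell markers of the 4 libraries, given below. Control 2 had lower sums of those markers than the libraries labelled CD4cre. It lay above the library labelled CD4cre 2 for Lag3 and above CD4cre 1 for Havcr2. The ratio of Havcr2 to the macrophage gene Csf1r was 3.2 and 0.968 in controls against 0.133 and 0.217. The part of such cells in these levels was not tested.

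The order of the receptors by FPKM, a per-length scale, differed between the groups. In controls it ran Cd96, Tigit, Cd40lg, Btla, Icos, Cd28, Havcr2, Ctla4, Lag3 and Pdcd1. Neighbours in this order overlapped between libraries, except that Tigit lay above Cd40lg and Cd40lg above Btla. In the libraries labelled CD4cre it ran Tigit, Havcr2, Lag3, Btla, Cd96, Cd28, Cd40lg, Icos, Pdcd1 and Ctla4. There Tigit lay above Havcr2, Lag3 above Btla, and Icos above Pdcd1 without overlap. Pdcd1, on 1 fragment in each library, and Ctla4, listed at 0, cannot be ranked. Tigit made up 24.3% and 20.5% of the summed FPKM of the 10 receptors in controls against 64.7% and 47.5% in the libraries labelled CD4cre.

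The receptors were also set against a list of 19 T cell genes without the members, among them Cd3e, Cd3g, Lat, Lck and Cd2. All 19 were lower without overlap, with a median log2 difference of -2.54 and 0 called over all genes tested. They were not lower by the same amount, with log2 differences from -3.19 (Lat) to -0.78 (Cd3d). Their summed FPKM was 2137 and 1676 in controls against 485 and 434 in the libraries labelled CD4cre. In bulk RNA, fewer T cells and less of these transcripts per T cell cannot be told apart. Dividing each library by the level of this list moved the median log2 difference of all genes from -0.07 to 1.87, and 65.2% of all genes tested then rose and 0.341% fell (limma, adjusted p under 0.05). On this scale 3 members rose, Tigit (adjusted p = 0.00716), Havcr2 (0.0118) and Lag3 (0.0358), with log2 differences of 2.61 to 2.88 against that median of 1.87. Cd40lg (log2 difference -1.42, adjusted p = 0.0311) and Ctla4 (adjusted p = 0.0106) fell. Cd96 was at -0.90 (adjusted p = 0.0636), Icos at -0.42 and Cd28 at -0.08 (0.443 and 0.92), Pdcd1 at 0.05 (0.946) and Btla at 0.90 (0.192).

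**Figure D2:**
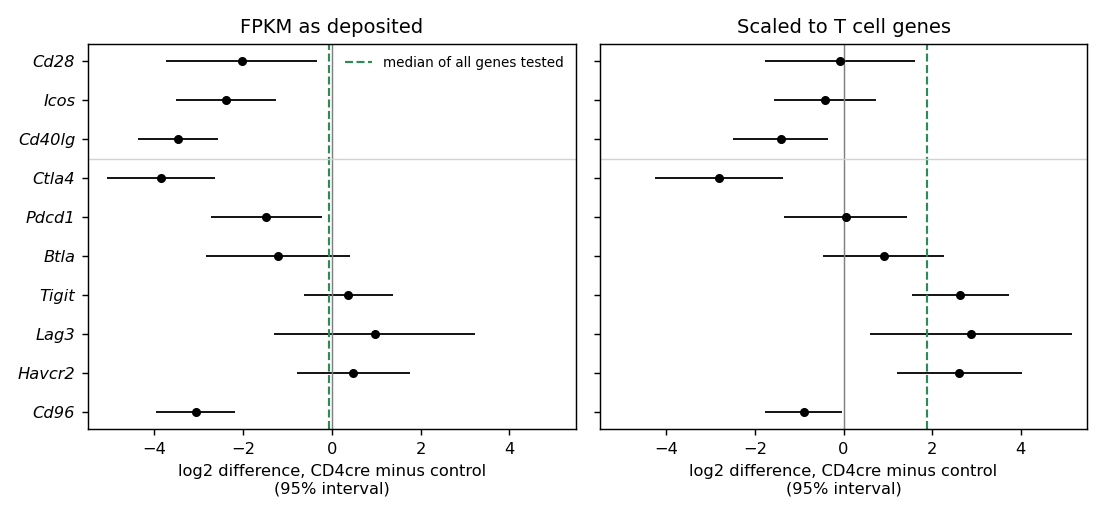
Log2 difference of each receptor, libraries labelled CD4cre minus control, with its 95% interval in limma, on FPKM as deposited (left) and after dividing each library by its level of T cell genes (right). The dashed line is the median of all genes tested, -0.07 on the left and 1.87 on the right. Tigit, Lag3 and Havcr2 lie right of it in both panels.

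The fragments behind these differences were few. Had Cd40lg kept the level relative to T cell genes that it had in controls, about 5.4 and 6.7 fragments would be found in the libraries labelled CD4cre 1 and 2, and 2 and 2 were. For Ctla4 about 2.5 and 3.1 would be found, each close to the 3 that a 0 allows in 1 library, and 0 and 0 were. Values on the shorter transcript would rest on fewer fragments. For Cd96 the values were 14.2 and 17.9 against about 7 and 10 found. For Icos, 5.7 and 7.2 stood against 3.0 and 6.9, and for Pdcd1, 0.8 and 1.1 against 1 and 1. Cd28 had 7.0 and 8.8 against 3.0 and 16.1, below in one library and above in the other. Btla was above in both, with 7.2 and 9.0 against 13.1 and 15.1. Tigit stood far on the other side, with 5.3 and 6.7 at the control ratio against 48.8 and 29.5 found. Havcr2 had 4.3 and 5.4 against 22.0 and 39.6, and Lag3 2.1 and 2.6 against 21.5 and 9.8. Taken gene by gene, the ratio of Tigit to Cd3e was 1.14 and 0.854 in controls against 11.1 and 5.88 in the libraries labelled CD4cre, while that of Cd40lg to Cd3e was 0.603 and 0.809 against 0.329 and 0.288. Such ratios depend on the T cell gene chosen, as Cd3e had a log2 difference of -2.54 and Cd3d one of -0.78. Cd3d stood at 177 and 146 FPKM in controls, and at 124 and 70.9 in the libraries labelled CD4cre. A ratio to Cd3d would rise less for Tigit and fall further for Cd40lg.

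**Figure D3:**
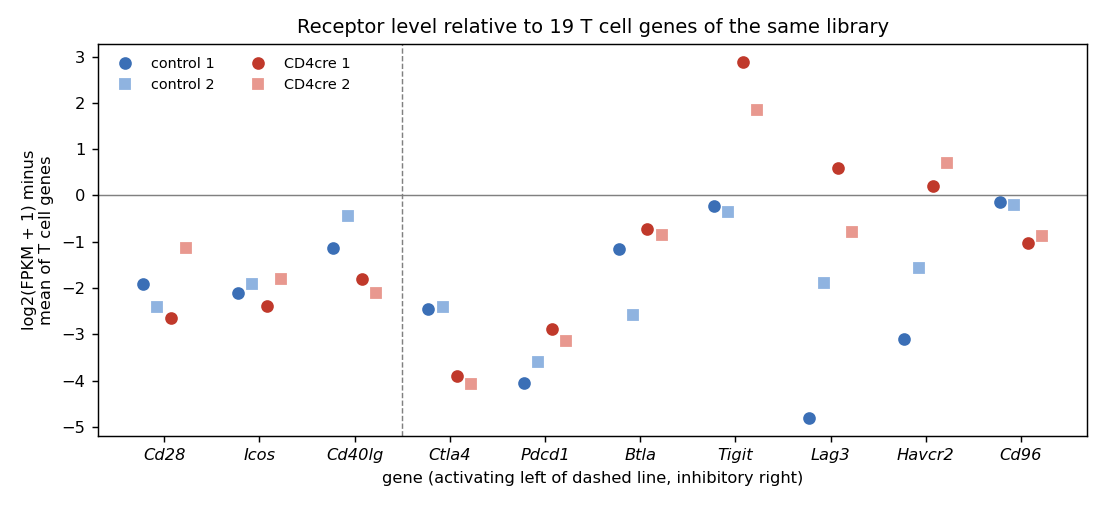
Level of each receptor as log2(FPKM + 1) minus the mean of 19 T cell genes in the same library, for the 4 libraries. Tigit, Lag3 and Havcr2 lie higher in both libraries labelled CD4cre than in both controls, as does Btla by less. Cd40lg and Cd96 lie lower. Pdcd1 also lies higher on this scale, but on values near 1 FPKM, where the 1 added before the logarithm weighs heavily. FPKM of Pdcd1 divided by the level of T cell genes overlapped, at 1.71 and 2.38 in controls against 2.38 and 1.9. The points of Ctla4 in red stand for values listed at 0 and show only the mean of the T cell genes.

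Markers of other cells differed between the groups and between the controls. Counts without overlap in these lists stand beside 23.2% higher and 25.7% lower among all genes tested. Macrophage markers summed to 108 and 518 FPKM in controls, and to 2970 and 3533 in the libraries labelled CD4cre. All 22 were higher without overlap (median log2 difference 3.64, 0 called), and 6 were at 0 in control 1, Adgre1 and Mertk among them. Dendritic cell markers summed to 139 and 1326 against 4105 and 4204 FPKM, with 10 of 14 higher and 1, Xcr1, lower without overlap (median 2.57). Zbtb46, Siglech and Itgae overlapped. Outside control 1, most of this sum came from the MHC class II presentation genes Cd74, H2-Ab1 and H2-Aa. Cd74 alone stood at 37.4 and 636 FPKM in controls, and at 2406 and 2251 in the libraries labelled CD4cre. NK markers had a median of 1.82, with 7 of 12 higher and 2 lower without overlap. Ncr1, a receptor that defines NK cells, was listed at 0 in both controls and stood at 8.25 and 19.8 FPKM in the other group. Regulatory T cell genes had a median of 0.14, with Foxp3 alone of 7 tested higher without overlap. Follicular helper genes had a median of -1.35, with 4 of 8 lower and 1 higher without overlap. Neutrophil genes had a median of 1.26 (7 of 11 higher without overlap), erythroid genes 1.68 (1 of 13), and B cell genes 1.06 (2 of 4, and 1 lower). Erythroid genes summed to 221 FPKM in control 1 against 8401 in control 2, and to 6697 and 5244 in the libraries labelled CD4cre. No gene of any of these lists was called in limma. The part of such cells in the levels of Tigit, Lag3, Havcr2 and Btla, which they can express, was not tested.

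**Figure D4:**
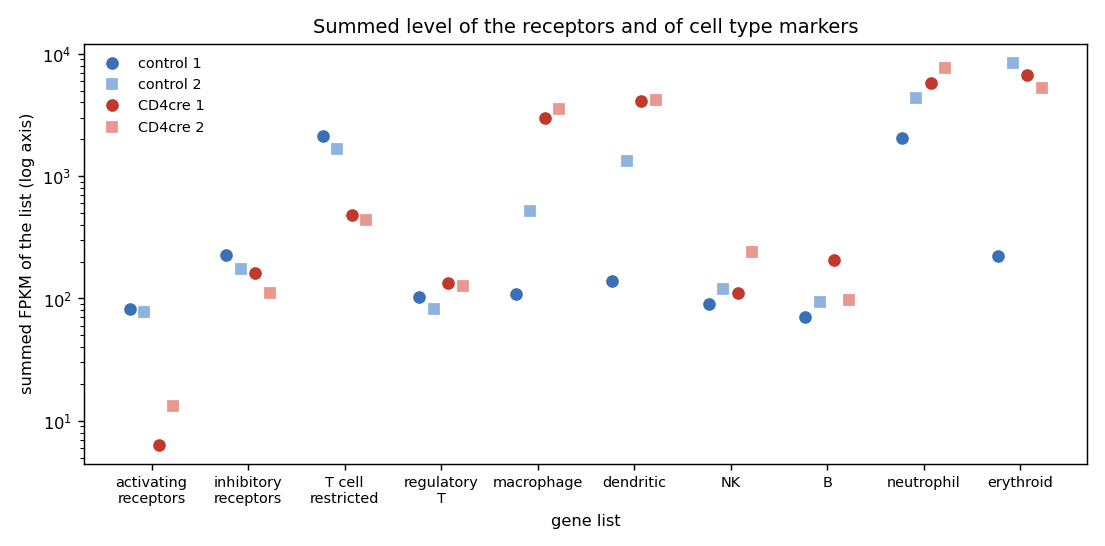
Summed FPKM (log axis) of the activating and inhibitory receptors and of marker lists in each library. The activating receptors and T cell genes are low in the libraries labelled CD4cre and the macrophage and dendritic cell markers high, with control 2 above control 1 in the latter. Outside control 1, the dendritic sum is mostly that of MHC class II presentation genes.

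The ligands of these receptors, which antigen-presenting cells carry, were not mostly lower or higher. Of 11 ligands and counter-receptors tested, 0 were called, 3 were higher and 4 lower without overlap (23.2% and 25.7% of all genes), and the median log2 difference was 0.07. At an unadjusted p under 0.05 in limma 2 were higher, Cd86 and Icosl. Cd86, which encodes a ligand shared by CD28 and CTLA-4, stood at 2.25 and 11.2 FPKM in controls, and at 26.7 and 31.0 in the libraries labelled CD4cre (log2 difference 2.24 ± 0.67, SE, adjusted p = 0.219). Icosl, the ligand of ICOS, stood at 4.16 and 9.81 against 21.0 and 26.6 FPKM (adjusted p = 0.2). Ceacam1, a proposed ligand of TIM-3, stood at 2.64 and 4.08 against 11.6 and 6.49 FPKM. The ratio of Cd86 to Cd28 was 0.099 and 0.956 in controls against 19.3 and 4.7 in the libraries labelled CD4cre.

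Cd80, the other ligand of CD28, was listed at 0 in the library labelled CD4cre 1 and stood at 0.85 to 4.24 FPKM in the other 3. Cd40, the receptor of CD40 ligand, had 3.79 FPKM in control 2 and 5.65 in the library labelled CD4cre 2, and is listed at 0 in the first library of each group. Cd274, which encodes the PD-1 ligand PD-L1, stood at 15.5 and 19.4 FPKM in controls, and at 16.6 and 20.0 in the other group, with a log2 difference between -0.80 and 0.93 (95% interval). Part of its transcript overlaps an antisense gene (511 exon bases). Pdcd1lg2, the other PD-1 ligand, stood at 3.34 and 1.75 against 1.16 and 1.56 FPKM. Tnfrsf14, the HVEM bound by BTLA, stood at 9.88 and 18.99 against 9.17 and 8.23. Pvr, which encodes the CD155 bound by TIGIT and CD96, stood at 4.92 and 3.61 against 2.74 and 1.23, and Lgals9, a galectin reported to bind TIM-3, at 13.6 and 17.3 against 9.43 and 27.8.

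**Figure D5:**
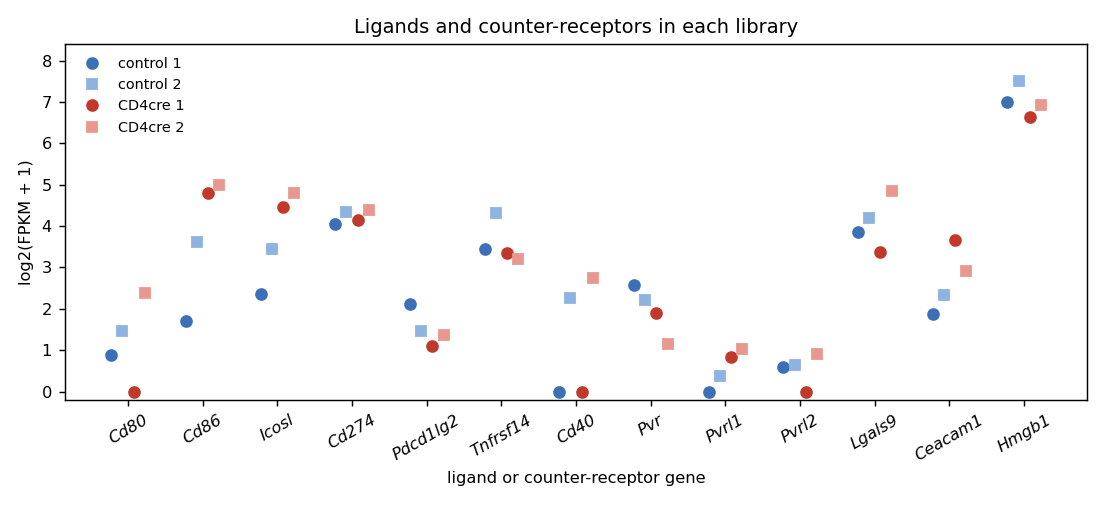
Level of 13 ligands and counter-receptors as log2(FPKM + 1) in the 4 libraries. Cd86 and Icosl are higher in both libraries labelled CD4cre, Pvr and Tnfrsf14 lower, and Cd274 overlaps between the groups.

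Other costimulatory and coinhibitory receptors were mostly lower. Of 21 tested, 0 were called, 14 were lower and 5 higher without overlap (25.7% and 23.2% of all genes, so the higher ones are near the share of all genes), and the median log2 difference was -1.41. Those restricted mostly to T cells were low: Cd6 (92.0 and 57.2 FPKM in controls against 7.49 and 9.41), Cd5 and Cd2, adhesion and tuning receptors of T cells, had log2 differences of -2.97, -2.82 and -2.55 (adjusted p = 0.0929, 0.082 and 0.107 in limma). Cd226, the activating rival of Tigit and Cd96 for CD155, stood at 25.3 and 16.9 FPKM in controls, and at 4.0 and 8.63 in the libraries labelled CD4cre (log2 difference -1.65, adjusted p = 0.213 in limma). Tnfrsf9, the costimulator 4-1BB, had 2.87 and 7.11 FPKM in controls and is listed at 0 for the other pair of libraries. The 5 higher ones were Cd244, Lair1, Vsir, Cd160 and Cd200r1. Cd244, an NK and myeloid receptor, stood at 0.38 and 2.38 against 15.3 and 17.5 FPKM (log2 difference 3.01 ± 0.57, SE, adjusted p = 0.139 in limma). Lair1, a collagen receptor of many leukocytes, stood at 4.08 and 11.5 against 20.98 and 16.02 FPKM, and Vsir, which encodes the checkpoint VISTA of myeloid and T cells, at 14.7 and 16.6 against 20.8 and 31.5.

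Molecules through which the receptors signal were also more often lower than higher. Of 22 signalling partners tested, 0 were called, 13 were lower and 2 higher without overlap (25.7% and 23.2% of all genes), and the median log2 difference was -0.47. Lck, a tyrosine kinase of T cells, had a log2 difference of -3.02 (adjusted p = 0.082 in limma). Grap2, an adaptor bound by CD28, stood at 53.4 and 36.2 against 13.1 and 8.37 FPKM, and Prkcq, the kinase PKC-theta recruited by CD28, at 40.0 and 29.8 against 9.58 and 6.45. The 2 higher genes encode phosphatases used by inhibitory receptors in many leukocytes. Ptpn6, which encodes SHP-1, stood at 43.9 and 51.5 against 128 and 117 FPKM (log2 difference 1.34 ± 0.28, SE, adjusted p = 0.148 in limma), and Inpp5d, which encodes SHIP-1, at 16.7 and 16.9 against 30.8 and 29.1. Ptpn11, which encodes the SHP-2 bound by PD-1, stood at 10.6 and 12.4 against 5.98 and 8.84. The lipid kinase genes Pik3r1 and Pik3cd stood at 9.44 and 7.95 against 8.46 and 10.03, and at 47.5 and 45.0 against 34.1 and 40.2 FPKM.

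The members lie in part close together in the genome. Cd28, Ctla4 and Icos stand side by side on chromosome 1, with gaps of 135.7 and 44.9 kb and no protein-coding gene between them, and all 3 were low in the libraries labelled CD4cre. Tigit, Btla and Cd96 share a region of chromosome 16, with 21 and 11 protein-coding genes between them, and differed in direction. None of the 10 members shared exon bases with another annotated gene, and none shared 100 bases at 95% identity with a transcript of another gene, a length at which fragments could be split between copies. The 5 genes whose centred log2(FPKM + 1) profile over the 4 libraries lay nearest to the mean of the 10 members (Euclidean distance) were Tmc6 (0.068), Endod1 (0.129), Vmn2r-ps54 (0.131), Dcaf15 (0.144) and Hint3 (0.147).

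Sequences of the 250 bases before 1 annotated transcription start per gene were at hand for 6 members (RefSeq, GRCm38.p6). For Tigit and Btla that start, and so the window, lies inside the gene span given above, which begins at a start farther upstream. Of the 6, 4 are printed to set 2 receptors that were low beside 2 that were not. Capitals mark 3 motifs on either strand, read as written or as the reverse complement. AGGTCA is the repeat unit of an estrogen response element. For AP-1 the pattern TGANTCA was searched, where N is any base, so matches include runs other than the consensus TGA(C/G)TCA. The core bound by NFAT, a factor activated with CD28 signalling, was searched as GGAAA. Matches of different motifs did not overlap in the printed windows.
Ctla4, chr1:60908775-60909024, plus strand: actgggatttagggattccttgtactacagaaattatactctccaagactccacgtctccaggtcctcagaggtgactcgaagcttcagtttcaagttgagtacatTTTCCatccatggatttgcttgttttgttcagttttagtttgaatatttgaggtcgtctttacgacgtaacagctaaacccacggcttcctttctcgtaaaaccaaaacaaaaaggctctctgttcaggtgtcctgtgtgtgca
Pdcd1, chr1:94052554-94052803, minus strand: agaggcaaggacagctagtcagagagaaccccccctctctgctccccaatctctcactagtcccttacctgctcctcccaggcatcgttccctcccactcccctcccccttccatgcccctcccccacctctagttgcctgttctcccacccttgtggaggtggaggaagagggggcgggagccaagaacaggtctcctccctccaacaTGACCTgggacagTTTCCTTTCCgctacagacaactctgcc
Tigit, chr16:43664185-43664434, minus strand: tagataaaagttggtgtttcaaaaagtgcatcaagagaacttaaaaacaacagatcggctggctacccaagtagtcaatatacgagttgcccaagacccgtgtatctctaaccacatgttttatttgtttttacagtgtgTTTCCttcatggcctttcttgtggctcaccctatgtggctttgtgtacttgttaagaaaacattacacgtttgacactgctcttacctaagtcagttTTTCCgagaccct
Havcr2, chr11:46454681-46454930, plus strand: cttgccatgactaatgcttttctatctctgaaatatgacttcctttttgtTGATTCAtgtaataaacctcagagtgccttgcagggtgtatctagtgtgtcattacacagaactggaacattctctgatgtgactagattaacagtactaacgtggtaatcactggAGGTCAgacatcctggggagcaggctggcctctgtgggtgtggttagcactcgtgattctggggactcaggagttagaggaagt
AGGTCA was found once in Pdcd1 and once in Havcr2, and not in Ctla4, Tigit, Btla or Cd96. Of all 32851 promoter windows of this length, 14.0% held it. TGANTCA was found in Havcr2 alone (6.75% of windows), and GGAAA in Ctla4, Pdcd1, Tigit and Cd96, the last with 4 matches (55.6% of windows). Of the 2 members with AGGTCA, Pdcd1 had lower values in the libraries labelled CD4cre, not resolved at this depth, and Havcr2 overlapped between the groups. A link between the motif and these levels was not tested. A match is a run of letters and no evidence of binding.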

How the data were processed

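FPKM were computed and deposited by the authors as 1 table, and the submitters' processing notes list HISAT, Bowtie2, RSEM and mm10 with no version. The sources used here do not give strand use. Gene positions are from RefSeq GRCm38.p6, which carries mm10 coordinates and matched 16183 of 16230 identifiers. The marker lists were, like the members, chosen with earlier results of these data known. Genes with a mean of at least 1 FPKM (12896) were fitted on log2(FPKM + 1) by limma 3.58.1 (R 4.3.3), using a group term alone, trended empirical Bayes variances, two-sided tests and Benjamini-Hochberg adjustment over all of them. This scale understates the change of low genes. All 10 members passed the filter. The procedure was tested on simulated data.

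Fragments were estimated because FPKM of genes with 1 transcript fall on multiples of what 1 fragment is worth. Over 10348 such genes of more than 800 bases (lengths from GENCODE, less 40 bases), controls 1 and 2 came to 707000 and 675000 fragments, the libraries labelled CD4cre 1 and 2 to 510000 and 567000. These steps were chosen to bring low values closest to whole fragments, so a high share is built in. At them 78.5% to 80.9% of low values lay within 0.2 of a whole fragment. The median share over other steps was 33.7% to 39.1%. Ctla4 and Btla have 2 transcripts, and the longer was used. Intervals are exact Poisson intervals at 95%, for counting error only.

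Besides the members and Esr1, the text names the up to 4 genes with the largest differences in each of the ligand, other receptor and signalling lists and the 5 nearest profiles, and other genes chosen after their values were seen. A gene that this rule took is not reported here. Shared library numbers are tied to no animal or day, so pairs were not assumed. The alternatives were other pseudocounts, filters and scalings, no trend, a replicate block, voom weights from the estimated fragments and leaving out each library.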

Additional observations from a re-analysis of the deposited data

How the results depend on the processing

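The low levels of Cd28, Icos, Cd40lg, Ctla4, Pdcd1, Btla and Cd96 kept their direction in every alternative in which they were fitted, except that scaling to T cell genes turned Pdcd1 to 0.046 and Btla to 0.90 (log2). No member was called in 11 of the 13 alternatives. Scaling to T cell genes called 5 and voom weights 1, without Ctla4 and Btla, which have 2 transcripts and were not fitted there. Pdcd1 was not tested at a mean of at least 5 FPKM. Leaving out 1 library at a time called 0 members, and gave log2 differences of -3.61 to -3.32 for Cd40lg, -3.31 to -2.83 for Cd96, -2.77 to -2.0 for Icos, -2.87 to -1.2 for Cd28, -1.52 to -1.45 for Pdcd1 and -2.14 to -0.29 for Btla. The direction of Tigit (-0.063 to 0.80), Lag3 (-0.29 to 2.22) and Havcr2 (-0.074 to 1.05) turned on leaving out CD4cre 1 (Tigit) or control 1 (Lag3, Havcr2). The cause was not tested.

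Over all genes, limma called 7. A pseudocount of 0.1, no filter, no trend and leaving out any library each called 0 (1813, 2190, 1996 and 1136 to 2048 at an unadjusted p under 0.05), a mean of at least 5 FPKM called 4, voom weights 53, and scaling to T cell genes 8446. The replicate block called 0 genes (1888 at an unadjusted p under 0.05) and 0 members, with adjusted p of 0.18 to 0.66 for the members. Deviations of same-numbered libraries had r = -0.002 across genes, which are not replicates. At most about 10 fragments lay behind each value of Icos, Cd40lg, Ctla4, Pdcd1 and Cd96 in the libraries labelled CD4cre, which limits their fold changes.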

Other observations

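Ctla4 and Foxp3 lay on different sides of the comparison, with neither called. Both are characteristic of regulatory T cells, where FOXP3 is known to drive Ctla4. Foxp3 stood at 67.5 and 91.3 FPKM in the libraries labelled CD4cre 2 and 1 and at 40.5 and 44.0 in controls, while Ctla4 was listed at 0 in both of the former. The ratio of Ctla4 to Foxp3 was 0.347 and 0.289 in controls. Il2ra, another gene of regulatory and activated T cells, stood at 11.5 and 10.8 FPKM in controls, and at 8.58 and 22.2 in the libraries labelled CD4cre 1 and 2. Ikzf2, which encodes Helios, was at 0.75 to 1.95 FPKM in all 4 libraries. Exons of Foxp3 overlap those of Flicr over 853 bases on the same strand and those of Ccdc22 over 590 bases on the opposite strand. How fragments there were assigned was not tested.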
